A study of Mus musculus with 12 samples.

Results

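The genes described here are 10 secreted antimicrobial, lectin and pentraxin genes of the gut epithelium: Reg3b, Reg3g, Reg4, Retnlb, Ang4, Itln1, Mptx1, Mptx2, Pla2g2a and Lyz1. They were taken by name from the 38924 genes counted in the proximal colon RNA-Seq data, and all 10 were found. The data came from 12 female C57BL/6 mice aged 6 weeks. The 6 APC Min/+ mice were heterozygous for Min, a germline truncating mutation of Apc that every cell of the body carries, and the other 6 were WT mice of the same strain. Per the study's methods, the genotypes were caged apart in groups of 3 to 4 and arrived in 3 shipments. Cage and genotype cannot be told apart, and the labels assign no mouse to a shipment, so that no shipment could be entered in a test. Counts per gene do not separate the Min allele from the normal one.

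These genes encode a chemical barrier between the epithelium and the gut bacteria. Reg3b and Reg3g encode C-type lectins of the regenerating islet-derived family, and Reg3g binds the peptidoglycan of Gram-positive bacteria. Their transcription in the intestine is known to follow bacterial signals and IL-22 through STAT3. Retnlb, Ang4 and Itln1 are secretory cell products that are known to respond to type 2 cytokines. Lyz1 and, in mouse strains with an intact gene, Pla2g2a are enzymes of Paneth cells, a small intestinal cell type that the normal mouse colon largely lacks.

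The total count on genes was between 50313805 and 197914821 per mouse. Levels are given in CPM (counts scaled to library size, with TMM factors). Before TMM factors, 3 counts were worth 0.0152 CPM in the deepest library and 0.0596 CPM in the shallowest. APC Min/+ mice M10_2 and M13_1 stood apart from the other 10 mice. The posterior Hox genes, which mark the hind end of the gut, summed to 473 and 600 CPM in these mice and to between 7.34 and 13.7 CPM in the others. The 8 absorptive colonocyte markers summed to 6242 and 8014 CPM in them, against 18193 CPM or more in every other mouse. Most of the sum in the other mice was Car1 (14620 CPM or more there, 966 CPM at its lowest in M10_2 and M13_1). Saa1, Car4 and Ceacam20 of the same list had their highest values in M10_2 or M13_1, so the sum does not speak for each marker. Of the 8, 5 had a positive log2 fold change between genotypes with all mice. Slc10a2, the ileal bile acid carrier, was at 2.86 and 10.3 CPM in M10_2 and M13_1, against 105 to 382 CPM in the others. The sum of the 8 epithelial markers did not set them apart (9674 and 8293 CPM, others 6483 to 11714), though a single marker such as Cdx2, lowest in both, did. The tissue is labelled as mucosa, while the study's methods describe sections of the bowel and name no step that removes muscle. The smooth muscle markers summed to between 3990.1 and 5934 CPM, so that muscle transcripts were present in all 12. Genotype results are given below with all mice and without M10_2 and M13_1. Their part in a result can be read from that pair of values, but their origin was not tested.

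RefSeq promoter sequence (GRCm38.p6) was at hand for 8 of the 10 members, Retnlb and Pla2g2a being the exceptions. The 250 bases before the RefSeq start were aligned for all 28 pairs of these promoters. Mptx1 and Mptx2 shared 72.8% of aligned positions and Reg3b and Reg3g 68.4%, while the 26 other pairs lay between 44.4% and 48.7%. In both pairs M10_2 and M13_1 also stood apart from the other mice in the same direction for the pair's 2 genes, and so the last 150 bases before their RefSeq starts are shown, 5′ to 3′ on the gene's own strand. Capitals mark matches, on either strand, to 3 motifs. TATAAA, the TATA box, is held by 7.57% of all 32851 promoters of this length. The letters CAATAAA, which CDX factors favour, are in 2.43% of them. The STAT core TTCNNNGAA is in 4.09%.
Mptx1 (chr1:174330368-174330517, forward strand): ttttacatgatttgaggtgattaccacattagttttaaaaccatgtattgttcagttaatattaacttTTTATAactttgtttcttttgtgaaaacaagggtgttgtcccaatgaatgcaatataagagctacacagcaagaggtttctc
Mptx2 (chr1:173277757-173277906, reverse strand): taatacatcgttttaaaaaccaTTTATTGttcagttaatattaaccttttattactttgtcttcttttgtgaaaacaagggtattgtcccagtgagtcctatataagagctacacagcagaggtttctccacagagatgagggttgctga
Reg3b (chr6:78370735-78370884, forward strand): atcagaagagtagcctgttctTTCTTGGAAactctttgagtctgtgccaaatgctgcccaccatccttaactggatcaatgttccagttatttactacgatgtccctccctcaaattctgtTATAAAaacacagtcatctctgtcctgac
Reg3g (chr6:78468875-78469024, reverse strand): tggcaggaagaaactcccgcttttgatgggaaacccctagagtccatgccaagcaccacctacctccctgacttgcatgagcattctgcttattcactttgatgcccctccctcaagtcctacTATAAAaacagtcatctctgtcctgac
Both Reg3 promoters held TATAAA 5′ of the start, from -29 to -24 in Reg3b and from -27 to -22 in Reg3g, counted from the RefSeq start. TTCNNNGAA was in the Reg3b window, from -129 to -121, and these letters were not in the Reg3g window. In the Mptx windows the matches lay on the opposite strand, TATAAA from -82 to -77 in Mptx1 and CAATAAA from -128 to -122 in Mptx2. RefSeq and GENCODE place some starts differently, and 24 bases of the Reg3b window and 21 of the Mptx2 window lie in GENCODE exons of the gene itself. A match is a description of the letters and not a binding site.

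At baseline, in the WT mice, the members covered more than 3 orders of magnitude in length-corrected level (RPKM, the CPM per kilobase of exon). Reg4, a lectin of secretory cells at the crypt base, was highest, at 841 ± 466 RPKM (SD, n = 6). Reg3b followed at 262 ± 186 RPKM and Retnlb, which encodes the goblet cell protein RELMβ, at 121 ± 80.0 RPKM. Mptx1, a mucosal pentraxin, was at 25.8 ± 9.80 RPKM, Ang4, a bactericidal ribonuclease, at 14.5 ± 5.48 RPKM, Reg3g at 13.7 ± 5.38 RPKM and Lyz1 at 11.6 ± 3.58 RPKM. The place of Reg3g in this order depends on its deposited exonic length, 2114 bases, against 759 for Reg3b. In CPM its WT mean was 28.9, above those of Mptx1 (20.6), Lyz1 (14.7) and Ang4 (10.3). Itln1, an intelectin that binds microbial sugars, was at 1.41 ± 1.36 RPKM. Pla2g2a, at 0.391 ± 0.275 RPKM, and Mptx2, at 0.220 ± 0.0854 RPKM, were lowest. In this order each gene's range over the WT mice overlapped that of the next, except for Lyz1 and Itln1 (lowest Lyz1 5.79, highest Itln1 4.03 RPKM). Over all 12 mice, the mean of Reg4 stood at the 99.8th percentile of the 20311 genes tested, and that of Pla2g2a at the 27.5th.

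**Figure D1:**
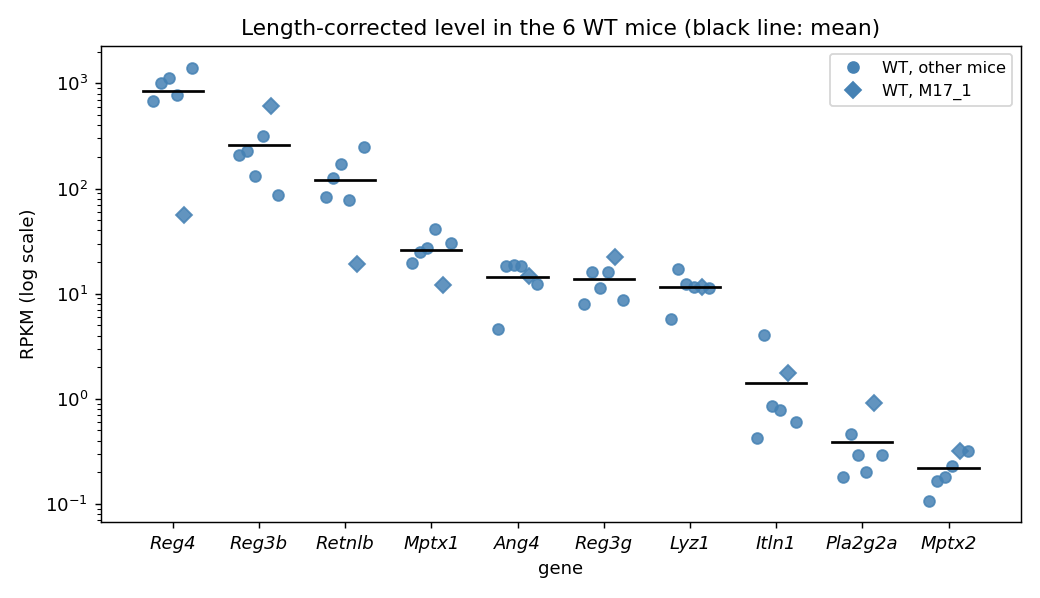
Length-corrected level (RPKM, log axis) of the 10 genes in the 6 WT mice, ordered by their mean (black line); each point is a mouse and the diamond is M17_1. Reg4 was highest in 5 of the mice and 56.2 RPKM in M17_1, and all neighbouring ranges overlapped except those of Lyz1 and Itln1.

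Between genotypes, a gene was called where edgeR's quasi-likelihood test gave an FDR under 0.05 and the change was 2-fold or more. This held for 0 of the 10 members and for 0.0% of the 20311 genes tested. An unadjusted p under 0.05 was found for 2 members, Mptx1 and Mptx2, both higher in APC Min/+ mice, beside 5.27% of all genes tested in either direction and 3.46% in that direction. The genotypes overlapped for all 10 members, and the 6 values of one genotype lay apart from the other's for 0.118% of all genes. Without M10_2 and M13_1, an unadjusted p under 0.05 was found for 0 members (1.59% of all genes), without M17_1 as well for 1 (Mptx1, lower in APC Min/+ mice, 1.24% of all genes, a fit chosen after seeing the data), and with M10_2 and M13_1 left out the log2 fold change turned its sign for 7 of the 10. The median log2 fold change of the members was -0.06 with all mice (-0.01 over all genes tested) and -0.09 without the 2 mice (-0.01). The exact test and the likelihood ratio test of edgeR called 0 members, and 10 (0.0492%) and 15 (0.0739%) genes in all, respectively. DESeq2 called 27 genes (0.133%), with Mptx1 and Mptx2 among them. M10_2 and M13_1 were the 2 highest mice for 2 members (11.8% of all genes) and the 2 lowest for 3 members, Reg3b, Reg3g and Retnlb (12.3%).

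**Figure D2:**
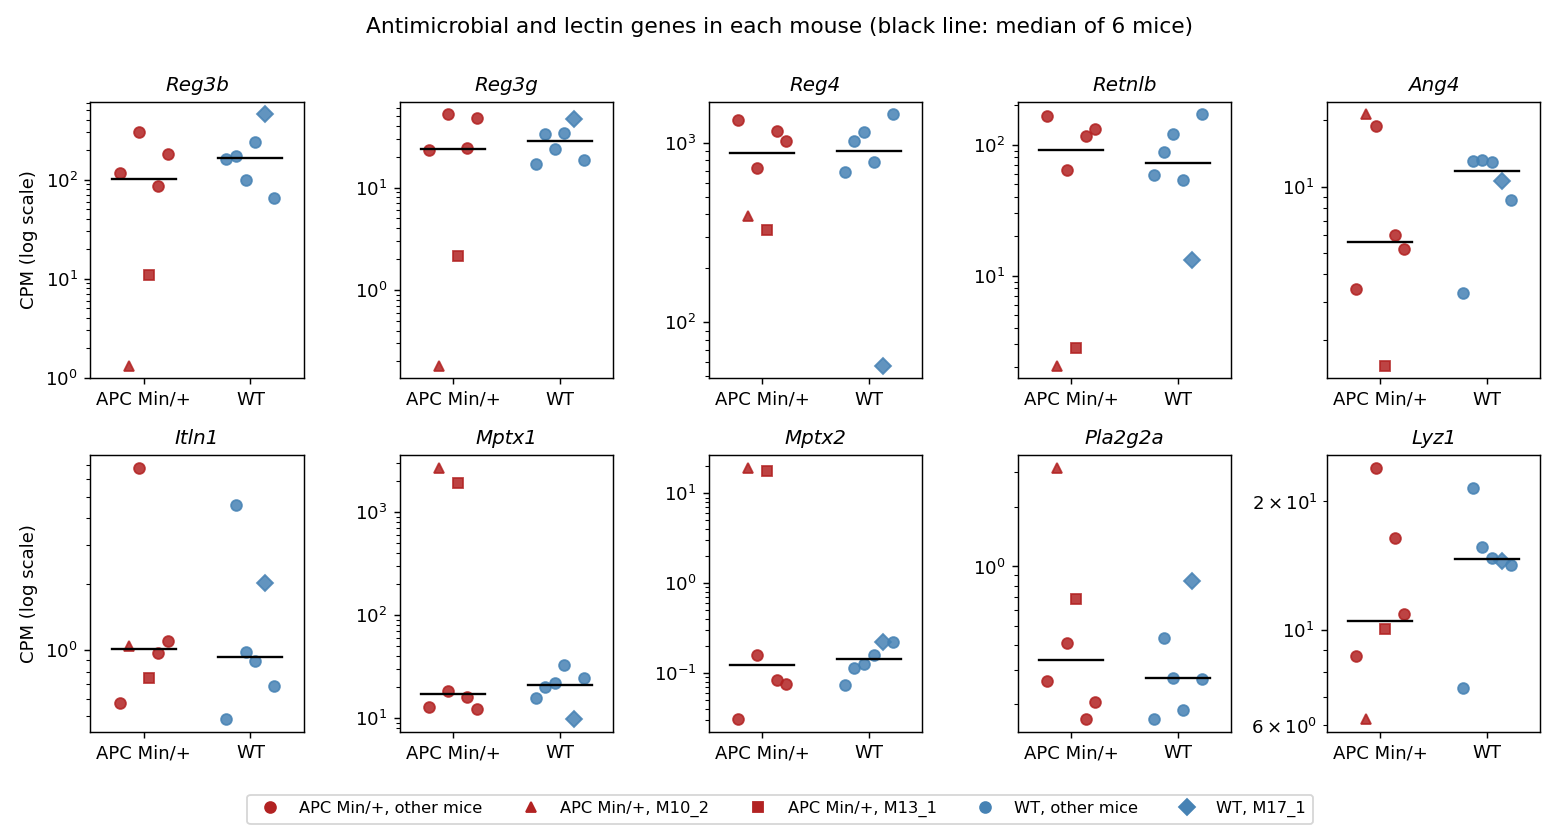
CPM of each gene (log axis) in the 6 APC Min/+ (red) and 6 WT mice (blue); each point is a mouse, triangles are M10_2, squares M13_1, diamonds M17_1, and black lines are medians. M10_2 and M13_1 lie far above the other mice for Mptx1 and Mptx2 and far below them for Reg3b, Reg3g and Retnlb, and the genotypes overlap in every panel.

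**Figure D3:**
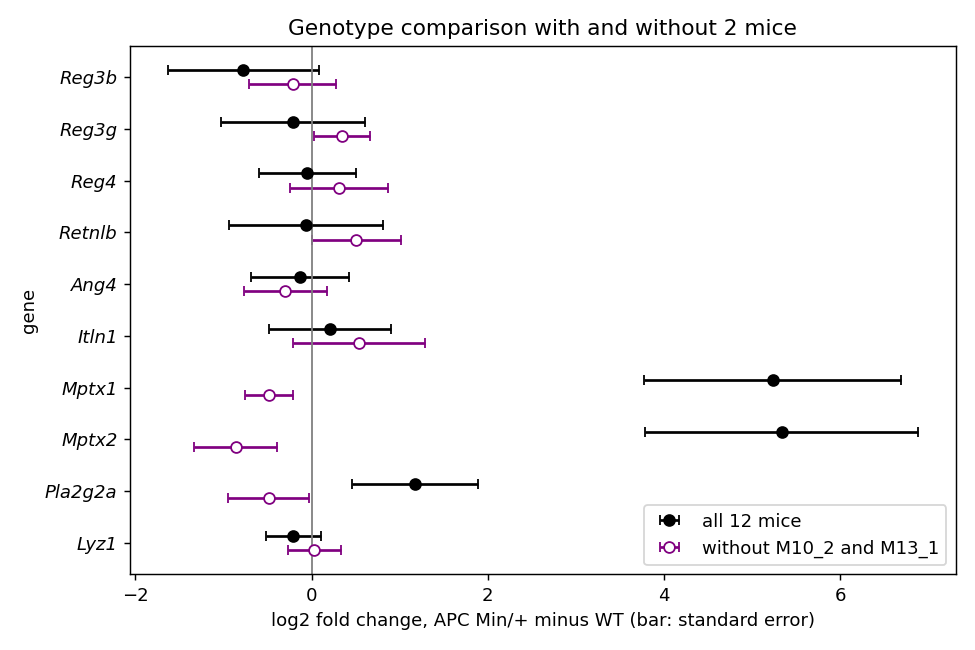
Log2 fold change between genotypes (APC Min/+ minus WT, edgeR quasi-likelihood fit) with all 12 mice (filled) and without M10_2 and M13_1 (open); bars are standard errors. Mptx1 and Mptx2 moved from 5.23 and 5.33 to -0.48 and -0.86.

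Reg3b and Reg3g lie on chromosome 6 (GRCm38, chr6:78370657-78373466 on the forward strand and chr6:78466269-78468872 on the reverse strand). Reg3b had values between 65.7 and 459 CPM in WT mice with a median of 166. In APC Min/+ mice it had 305, 180, 116 and 85.6 CPM in M18_2b, M20_1, M8_2 and M2_A, but only 996 counts, or 0.0662 of the WT median, in M13_1, and 261 counts, or 0.00793 of the WT median, in M10_2 (1.32 CPM). The values of 4 APC Min/+ mice thus fell inside the WT range. The fitted log2 fold change between genotypes came to -0.77 (SE, the standard error, 0.86; FDR = 0.911, edgeR's quasi-likelihood test), and to -0.22 (0.49) without the 2 mice.

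Reg3g followed the same course. It lay between 16.8 and 46.7 CPM in WT mice (median 28.8) and between 23.3 and 52.1 CPM in 4 APC Min/+ mice, and was at 2.14 CPM in M13_1 and 0.182 CPM (36 counts) in M10_2. Its log2 fold change came to -0.21 (SE 0.82, FDR = 0.968, edgeR), and to 0.35 (0.32) without the 2 mice. The ratio of Reg3b to Reg3g in RPKM lay between 9.77 and 27.4 over the 12 mice, with 14.3 in M13_1 and 20.2 in M10_2, both inside the range of the other mice. The size of this ratio depends on the deposited lengths, 759 bases for Reg3b and 2114 for Reg3g. The transcripts of the pair are 72.4% identical, and they share no stretch of 100 bases, the read length. Reg3a, a relative of the same cluster, was also lowest in M10_2 (0.0101 CPM) and M13_1 (0.0663 CPM), with 0.574 to 6.67 CPM elsewhere. Reg3d was at or below 0.0737 CPM in every mouse.

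Of the signals that are known to act on these 2 genes, Il22 was at or below 0.0384 CPM in every mouse, while Il22ra1, its receptor subunit on epithelium, was present at 15.4 to 51.2 CPM, and M10_2 and M13_1, at 49.5 and 50.5 CPM, were near the top of this range. Stat3 was at 73.5 to 194 CPM in APC Min/+ mice and 59.9 to 130 CPM in WT mice (log2 fold change 0.34, SE 0.23, unadjusted p = 0.154, edgeR).

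Reg4 (chr3:98222156-98236748) was the most abundant member. It lay between 326.6 and 1345 CPM in APC Min/+ mice with a median of 875, and between 57.4 and 1443 CPM in WT mice with a median of 903. M10_2 and M13_1 held the 2 lowest values among APC Min/+ mice, 392.2 and 326.6 CPM, but the lowest value of all was that of WT mouse M17_1. The other 5 WT mice had at least 691 CPM. Between genotypes the log2 fold change of Reg4 was -0.05 (SE 0.55, FDR = 0.989, edgeR), with a 95% confidence interval from -1.23 to 1.13, so that a difference of a little over 2-fold in either direction was within the error. Without M10_2 and M13_1 it was 0.31 (0.56). Reg4 made up between 59.5% and 82.6% of the summed CPM of the 10 members in 9 of the mice, 12.5% in M10_2, 14.4% in M13_1 and 9.34% in M17_1.

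Retnlb (chr16:48816856-48818892) lay between 13.2 and 171 CPM in WT mice (median 72.9), with M17_1 lowest again, at 13.2 CPM against at least 53.6 CPM in the other 5. Of the APC Min/+ mice, 4 had 64.6 to 165 CPM, and M10_2 and M13_1 had 2.06 and 2.81 CPM. Retnlb had a log2 fold change of -0.06 (SE 0.87, FDR = 0.991, edgeR) and 0.51 (0.51) without both. Its type 2 cytokine inducer Il13 was at or below 0.0221 CPM in every mouse. Stat6, which relays that signal, was at 94.9 to 122 CPM in APC Min/+ and 107 to 134 CPM in WT mice. The relative Retnla was lowest in the same 2 mice, at 5.53 and 4.08 CPM, and at 11.3 CPM or more in every other.

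M17_1 stood apart in other genes too. Gsdmc4, a gasdermin of the colon epithelium, was at 167 CPM there and at 799 CPM or more elsewhere, and the water channel Aqp8 was at 4.80 CPM, against 111 CPM or more. Its epithelial markers had the lowest sum of all mice, 6483 CPM. Its goblet cell markers summed to 19246 CPM, above the 10916 to 13484 CPM of the other WT mice, and its Reg3b was the highest of all mice. The T and B cell markers came to 3030.0 CPM in M17_1, to 3118 CPM in M2_A and to 2411 CPM or less in the other 10. Genes with at least 6000 bases of exon were lower relative to those of at most 1500 bases in M17_1, by -0.39 in median log2 CPM. Such a measure can follow RNA quality and library preparation, but what it followed here was not tested. M2_A had -0.44 on this measure and 1161 CPM of Reg4, and M13_1 (0.32) and M10_2 (0.24) had the highest values of the 12 mice. The part of these properties in the level of Reg4 was not tested.

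The mucosal pentraxins Mptx1 and Mptx2 are secreted relatives of C-reactive protein that bind ligands in the presence of calcium, and Mptx2 is known as a Paneth cell gene of the mouse ileum. They lie on chromosome 1 (chr1:174330518-174332873, forward strand, and chr1:173274382-173277777, reverse strand). Mptx1 reached 2698 CPM in M10_2 and 1892 CPM in M13_1. The other 4 APC Min/+ mice had 12.1 to 18.19 CPM, and the WT mice had 9.71 to 32.7 CPM with a median of 20.7. M10_2 and M13_1 were thus 130 and 91.5 times the WT median, and the other 4 were at or below 0.880 of it. Mptx1 had a log2 fold change of 5.23 (95% confidence interval 2.07 to 8.39, unadjusted p = 0.00331, FDR = 0.908, edgeR's quasi-likelihood test), and it was -0.48 (SE 0.27, unadjusted p = 0.104) without the 2 mice. With DESeq2 and all mice, the FDR was 0.0167. Mptx1 made up 85.8% and 83.5% of the summed members in M10_2 and M13_1 and at most 2.80% in any other mouse. The 2 mice had the highest sums, 3144 and 2265 CPM, or 0.314% and 0.227% of their library size after TMM scaling.

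Mptx2 had 3838 counts in M10_2, 136 times the WT median by CPM, and 1630 counts in M13_1, 126 times the WT median. In the other 10 mice it had 4 to 24 counts, or 0.0308 to 0.221 CPM. Its log2 fold change was 5.33 (SE 1.55, unadjusted p = 0.00427, FDR = 0.908, edgeR; 0.0263 with DESeq2), and -0.86 (0.47, unadjusted p = 0.0904) without both. The Mptx2 value is uncertain, since the transcripts of the pair are 92.3% identical over 795 aligned positions with a longest identical run of 112 bases, and 3.31% of the 100-base stretches of Mptx2 are also found in Mptx1. The ratio of Mptx1 to Mptx2 in RPKM was 121 in M10_2 and 91.3 in M13_1, within the 38.1 to 362 of the other mice. How many of the Mptx2 counts were reads of Mptx1 was not tested.

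The other epithelial antimicrobial and lectin genes did not move as one in M10_2 and M13_1. Their 32 genes summed to 26292 and 24014 CPM in these mice, within the 22138 to 32919 CPM of the others. Of the 29 tested, 5 had their 2 highest values in these mice and 6 their 2 lowest, where the shares over all genes tested were 11.8% and 12.3%. Dmbt1, a secreted scavenger receptor that binds bacteria, was at 3428 and 3584 CPM, against 6692 to 10111 CPM, and the defensin gene Defb37 was at 0.0606 and 0.387 CPM, against 2.97 to 19.7 CPM. Among the higher genes, also singled out after their values were seen, Wfdc2, an antibacterial whey acidic protein, had 217 and 185 CPM in M10_2 and M13_1 and 18.98 to 32.8 CPM elsewhere. Ccl28, a chemokine with antimicrobial activity, was at 167 and 214 CPM, against 56.3 to 89.9 CPM. Saa1, a serum amyloid A protein of the colon epithelium, is not of this list but of the absorptive colonocyte markers. It was at 1012 and 822 CPM in M10_2 and M13_1, against 47.3 to 125 CPM. The goblet cell gene Clca1 was highest in both (8931 and 4976 CPM, others 1272 to 2928), and Muc2, the main mucin, was lowest in both (1714 and 1268 CPM, others 2830.0 to 10534).

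**Figure D4:**
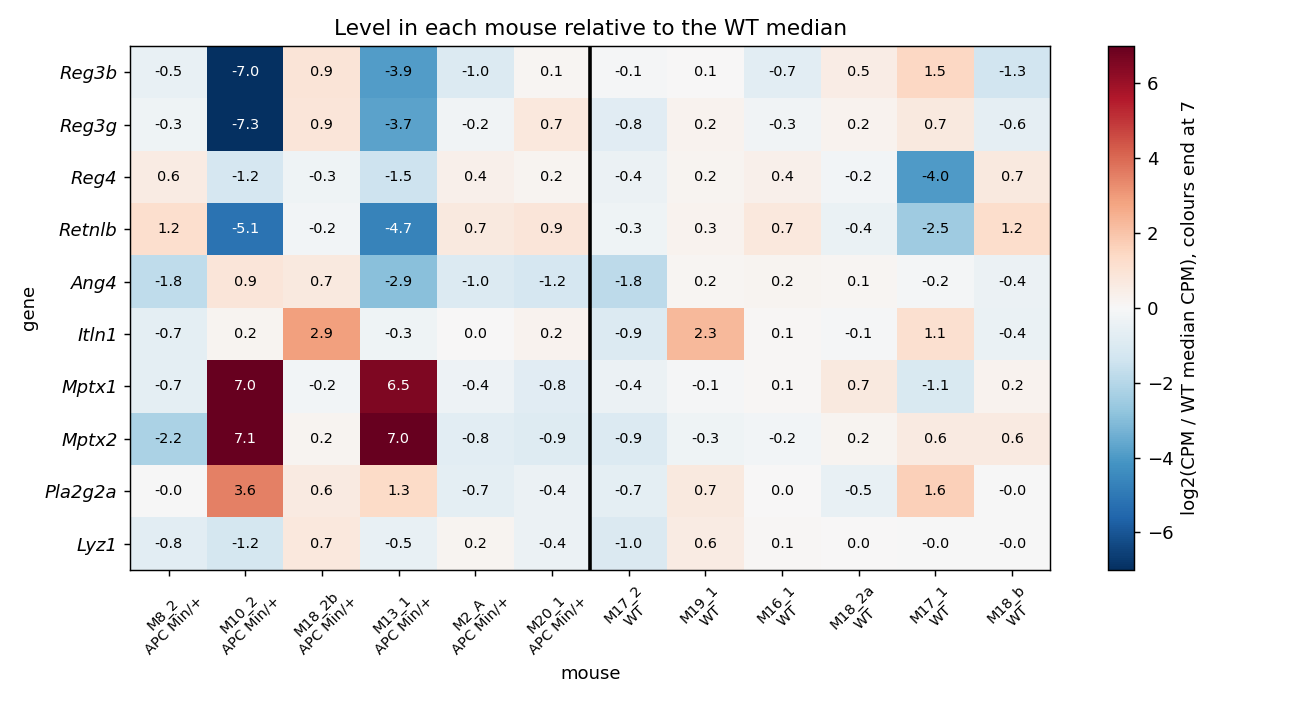
Level of each gene in each mouse relative to the median of the 6 WT mice, as log2 of the CPM ratio (numbers in the cells; red is higher, blue is lower; the black line parts the genotypes). The columns of M10_2 and M13_1 hold the values of largest size, M17_1 stands out for Reg4, and M18_2b and M19_1 for Itln1.

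Itln1, Lyz1 and Ang4 encode products of Paneth cells in the small intestine. Itln1 (chr1:171518122-171535294) was between 0.486 and 4.59 CPM in WT mice (median 0.936) and between 0.574 and 6.78 CPM in APC Min/+ mice (median 1.01). The highest mice were 1 of each genotype, M18_2b with 6.78 CPM (7.25 times the WT median) and M19_1 with 4.59 CPM (4.91 times), and M17_1 came next with 2.03 CPM. Itln1 had a log2 fold change of 0.21 (SE 0.69, FDR = 0.962, edgeR). It was 0.54 (0.75) without M10_2 and M13_1, -0.87 without M18_2b and -0.20 without M18_2b and M19_1, a fit chosen after seeing the data.

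Lyz1 (chr10:117287797-117292868) was the least variable member over the 12 mice, with an SD of 0.57 on the scale of log2(CPM + 0.5). This SD was still at the 92.0th percentile of the genes tested. Without M10_2 and M13_1, the SDs of Mptx2 (0.146), Pla2g2a (0.312) and Mptx1 (0.504) were below that of Lyz1 (0.513). In those mice Mptx2 was at 0.0308 to 0.221 CPM and Pla2g2a at 0.168 to 0.847 CPM. The added 0.5 CPM holds down the SDs of such low values, so these do not show that Mptx2 and Pla2g2a were steadier than Lyz1. Lyz1 lay between 6.21 and 24.0 CPM in APC Min/+ mice (median 10.5) and between 7.32 and 21.5 CPM in WT mice (median 14.7), with M18_2b and M19_1 highest. The genotypes differed in Lyz1 by a log2 fold change of -0.21 (SE 0.31, FDR = 0.917, edgeR) with a 95% confidence interval from -0.88 to 0.46, and by 0.031 (0.30) without M10_2 and M13_1. Lyz2, the lysozyme of macrophages, was at 102 to 224 CPM, and its RPKM was 5.22 to 23.5 times that of Lyz1. The transcripts of the 2 genes are 95.8% identical with a longest identical run of 118 bases, and 2.06% of the 100-base stretches of Lyz1 are found in Lyz2, so that some reads of one may have been counted for the other. In M2_A and M16_1, where Lyz2 was highest (203 and 224 CPM), Lyz1 was at 16.5 and 15.7 CPM. In M18_2b and M19_1, Lyz2 was at 125 and 123 CPM.

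Ang4 (chr14:51763878-51773590) lay between 1.54 and 21.3 CPM in APC Min/+ mice (median 5.61) and between 3.27 and 13.2 CPM in WT mice (median 11.7). Here M10_2 and M13_1 were not alike, since M10_2 had the highest value of all mice and M13_1 the lowest. M18_2b had 18.9 CPM, and the other 3 APC Min/+ mice had 3.44 to 6.04 CPM, while 5 of the 6 WT mice had at least 8.68 CPM. Ang4 had a log2 fold change of -0.13 (SE 0.56, FDR = 0.972, edgeR) and -0.30 (0.47) without both. The medians thus lay further apart than the fitted means. Ang, a relative with 86.0% identity over the transcript, was at 10.1 to 32.4 CPM in APC Min/+ and 21.8 to 52.9 CPM in WT mice (log2 fold change -0.61, SE 0.30, unadjusted p = 0.0633, edgeR), with the 2 lowest values in M13_1 and M10_2. Ang5, with 88.9% identity, was at or below 0.0553 CPM.

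The Paneth cell defensins were read beside these genes. The 9 Defa genes of the marker list summed to 27.3 CPM in M18_2b and 13.4 CPM in M19_1, to 1.47 CPM in M17_1, and to at most 0.636 CPM in the other 9 mice, with no count in M10_2, M13_1 and M17_2. The 3 mice with the highest sums were also the 3 highest for Itln1, in the same order, whereas for Lyz1 this held for the first 2 only. Defa24, the most abundant, was at 11.8 CPM in M18_2b and 6.27 CPM in M19_1. Mmp7, the protease that processes defensins, did not follow them, with its highest value in M17_1 (4.96 CPM), and 3.41 CPM in M18_2b and 2.77 CPM in M19_1. The source of the defensin reads was not tested. M18_2b and M19_1 were also the pair of libraries closest to each other by a chi-square of counts over genes (16.6 per degree of freedom, next pair 30.2), a distance far above sampling noise and they were counted as separate mice.

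**Figure D5:**
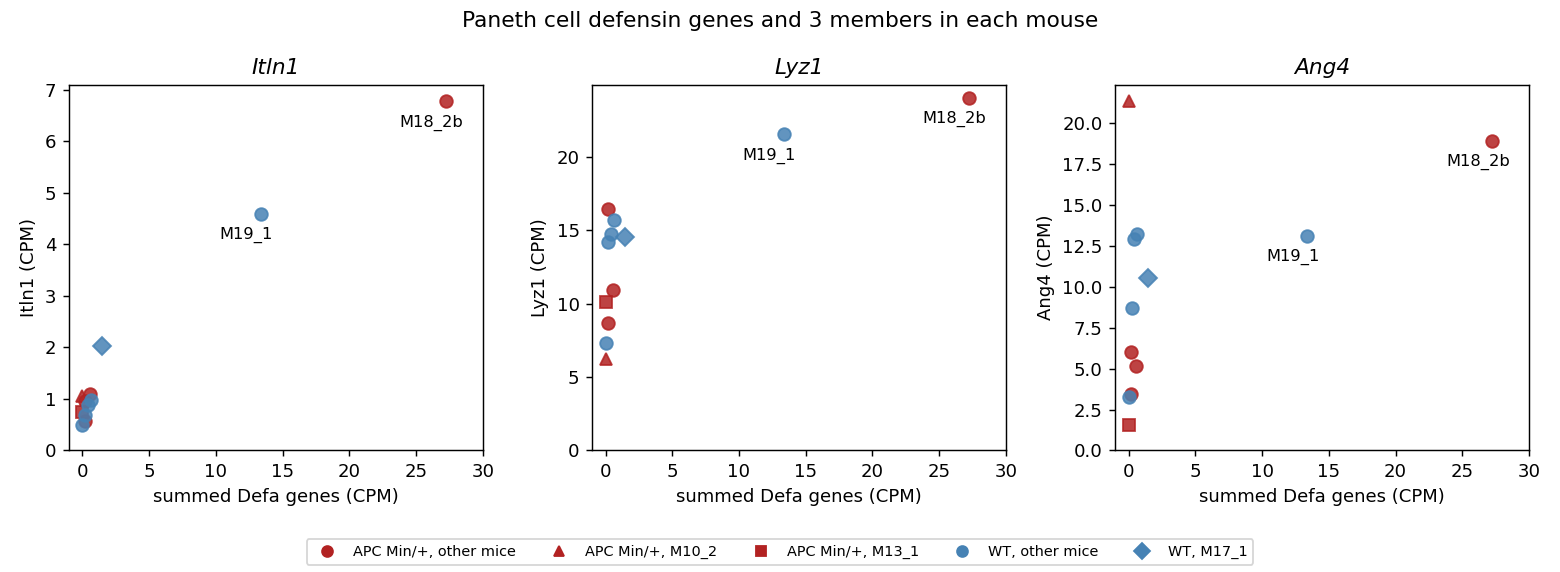
CPM of Itln1, Lyz1 and Ang4 (vertical axes) against the summed CPM of 9 Defa genes (horizontal axis) in each mouse; colours and symbols mark genotype and the mice named in the key. M18_2b and M19_1, at 27.3 and 13.4 CPM of Defa, are the 2 highest for Itln1 and Lyz1, while Ang4 is highest in M10_2, which had no Defa count.

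Pla2g2a (chr4:138831857-138835186, forward strand) is the gene at Mom1, the locus that modifies tumor number in Min mice. It encodes a secretory phospholipase that breaks bacterial membranes. C57BL/6 mice carry a frameshifted allele, and the annotation lists the gene as a polymorphic pseudogene, so the counts here are of a transcript without an intact product. Pla2g2a was between 0.168 and 0.847 CPM in WT mice (median 0.270) and between 0.168 and 3.17 CPM in APC Min/+ mice (median 0.336). M10_2 was highest, with 3.17 CPM (628 counts, 11.7 times the WT median), followed by WT mouse M17_1, with 0.847 CPM, and by M13_1, with 0.685 CPM. The lowest mice had 9 to 16 counts. Pla2g2a had a log2 fold change of 1.17 (95% confidence interval -0.37 to 2.71, FDR = 0.908, edgeR), -0.09 without M10_2 alone and -0.49 (SE 0.46) without M10_2 and M13_1. The difference in the means therefore rested on 1 mouse. The gene overlaps the span of Pla2g5 on the opposite strand, with 0 exonic bases in common. Pla2g5 had 18.7 and 12.1 CPM in M10_2 and M13_1 and 1.69 to 2.52 CPM elsewhere, and whether the counting used strand is not given in the sources used here. Pla2g2f, another secretory phospholipase, was at 80.3 and 49.9 CPM in these 2 mice, against 2.68 to 6.78 CPM.

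The companion lists were read in the same fit. Of 24 named relatives of the members, 23 were in the files and 16 had enough counts to be tested. In edgeR's quasi-likelihood test 0 were called, Pla2g5 and Pla2g2f had an unadjusted p under 0.05 (both higher in APC Min/+ mice), and the median log2 fold change was -0.02. Of the 32 other epithelial antimicrobial and lectin genes, 29 were tested and 0 called, with a median log2 fold change of -0.02. Of these, Wfdc2 (1.76, SE 0.62), Ccl28 (0.77, 0.28) and Sprr2a3 (0.85, 0.33) were higher and Cxcl17 (-1.45, 0.62) was lower in APC Min/+ mice at an unadjusted p under 0.05, and 0 of the list were without M10_2 and M13_1. The 3 most abundant of the list by RPKM were Lypd8, which keeps flagellated bacteria off the epithelium, Zg16, a lectin-like goblet cell protein that binds Gram-positive bacteria, and the galectin gene Lgals4. Lypd8 was at 5433 to 7466 CPM in APC Min/+ and 4627 to 7407 CPM in WT mice (log2 fold change 0.03, SE 0.14). Zg16 was at 1179.8 to 3738 and 1228 to 1867 CPM (0.33, 0.26). Lgals4 was at 2602 to 3213 and 2456 to 3406 CPM (-0.02, 0.12).

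Of the 33 cytokines, receptors and transcription factors listed as acting on these genes, 29 were tested and 0 called (median log2 fold change -0.02). Il18 was higher (1.51, SE 0.46, unadjusted p = 0.00621) and Spdef, a factor of goblet and Paneth cell maturation, lower (-0.68, 0.30, unadjusted p = 0.0378) in APC Min/+ mice. Il18 was at 132 and 122 CPM in M10_2 and M13_1 and at 13.3 to 39.7 CPM elsewhere, and Spdef at 32.8 and 21.4 CPM, against 53.5 to 129 CPM. The most abundant of the list were the nuclear receptor genes Hnf4a (0.13, SE 0.22) and Vdr (-0.08, 0.13), and Cdx1 (0.21, 0.30). The homeobox gene Cdx2 was lowest in M13_1 and M10_2 (20.6 and 49.9 CPM), with 66.6 to 251 CPM in the others. Of 10 goblet cell markers, 0 were called and only Spdef had an unadjusted p under 0.05. The goblet markers summed to 9452 to 21155 CPM in APC Min/+ and 10916 to 19246 CPM in WT mice. Less RNA per cell and fewer cells of a type cannot be told apart in these bulk samples.

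For each member with a mean of at least 1 CPM, the genes with the most similar profile were found among 14898 genes, by the root mean square difference of log2(CPM + 0.5) after centring each gene on its mean over the 12 mice. The search describes likeness and rests for several members on M10_2 and M13_1. For Reg3b the nearest were Apol10a (0.51), Reg3g (0.55) and Sis (0.60), the sucrase-isomaltase of absorptive cells, each lowest in M10_2. For Reg3g they were Nts (0.42), Prkg2 (0.43) and Apol10a (0.44). For Retnlb they were Epop (0.33), Alpi (0.44), an alkaline phosphatase of the brush border, and Mal (0.51). For Reg4 they were Rnf152 (0.39), Gal3st2c (0.47) and 9130204K15Rik (0.53), and Rnf152 was lowest in M17_1, as Reg4 was.

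For Mptx1 the nearest profiles were those of Hottip (0.56), Ly6g (0.59) and Fxyd4 (0.61), all between 31.1 and 98.7 CPM in M10_2 and M13_1 and at most 0.472 CPM in the other mice. For Mptx2 they were Hoxa11os (0.20), Itih2 (0.20) and Gm8540 (0.21). The 0.5 CPM added before the log was above every Mptx2 value in the other mice (0.0308 to 0.221 CPM). It was also above those of Hottip, Ly6g and Fxyd4 there, so that these distances depend on it. Hottip and Hoxa11os are noncoding RNA genes of the Hoxa cluster. For Itln1 they were Cpb1 (0.30), Iglv1 (0.56) and Lyz1 (0.60). For Lyz1 the named genes were Pla2g4c (0.32) and Ccl25 (0.35), a chemokine gene of the small intestine. For Ang4 they were Sh2d7 (0.73), Ighv1-85 (0.75) and Trpm5 (0.75), at a distance not far below the 1.01 of Ang4 from its own mean. Without M10_2 and M13_1 the nearest gene changed for Reg3b (Gcnt1, 0.29), Reg3g (Gm5431, 0.32), Mptx1 (Slc22a4, 0.29), Mptx2 (Pqlc2, 0.07), Lyz1 (Ms4a18, 0.31) and Ang4 (Mttp, 0.37), and was again Rnf152 for Reg4, Epop for Retnlb and Cpb1 for Itln1. Over these 10 mice the members' own root mean square distance from their mean was 0.82 for Reg3b, 0.54 for Reg3g, 0.48 for Mptx1, 0.14 for Mptx2, 0.49 for Lyz1 and 0.78 for Ang4. The distances of the nearest genes are to be read against these, since no limit for a close gene was set. The Mptx2 profile rested on 4 to 24 counts.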

How the data were processed

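Proximal colon RNA of 12 mice (6 of each genotype) was read as paired ends of 100 bases. Per the labels and the study's methods, the authors aligned the reads with STAR (version 2.3.0 in the submitters' processing notes) to GRCm38.p2, assigned them to genes with featureCounts. The files the authors deposited hold raw counts per gene, a table for each mouse, beside the gene's exonic length in bases. Whether reads that match several places were counted, and whether strand was used, are not given in the sources used here. Gene symbols, positions and transcripts were taken from GENCODE M21 (37607 of 38924 IDs matched). Groups follow the genotype label. Genotypes were compared with edgeR 4.0.16 (quasi-likelihood test, TMM normalization, genotype only) on the 20311 genes that reached 10 counts in 3 or more mice, with Benjamini-Hochberg adjustment over all of them. A gene was called where the FDR was below 0.05 and the change 2-fold or more. Standard errors were computed from the log2 fold change and its F statistic. Alternatives were DESeq2 1.42.0, edgeR's exact and likelihood ratio tests, other scaling, no filter, and fits without 1, 2 or 3 mice. p-values set the genotype difference against the spread between mice. Counting error alone is limited by the totals of 50313805 to 197914821.

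The 10 members, and the companion lists, were chosen with earlier results of these data known. The genes named are the members, the 3 genes of highest mean RPKM in a companion list, close relatives of members, the 3 genes with the profile most like each member, and posterior Hox genes, and other genes named were chosen after their values were seen. RPKM is the CPM per kilobase of the deposited length. Promoter windows are from RefSeq and were aligned with Biopython 1.88.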

Additional observations from a re-analysis of the deposited data

Results flagged for a closer look

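In the 20 groups of 6 values examined (10 members in 2 genotypes), the gap of the highest or lowest mouse to its neighbour was compared with the whole range, against Dixon's 95% critical value. For normally distributed values chance alone flags about 1 in 20 such groups, and 2 were flagged here. Whether CPM values follow that distribution was not tested. Itln1 in APC Min/+ mice was at 6.78 CPM in M18_2b and at 0.574 to 1.10 CPM in the other 5. Pla2g2a in APC Min/+ mice was at 3.17 CPM in M10_2 and at 0.168 to 0.685 CPM in the other 5. Mptx1 and Mptx2 were not picked out by this measure because 2 mice were high together.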

How the results depend on the processing

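Of the alternatives, scaling by size factors or total counts and leaving out the filter kept every member on its side of the threshold with its direction. The count of genes called moved from 0 to 27 with DESeq2, 10 with the exact test and 15 with the likelihood ratio test, and the count of members called from 0 to 2 with DESeq2 (Mptx1, FDR = 0.0167, and Mptx2, FDR = 0.0263). The count of members with an unadjusted p under 0.05 moved from 2 to 0 without M10_2 and M13_1, and to 1 (Mptx1, log2 fold change -0.63) without these and M17_1. Without M10_2 and M13_1, the log2 fold changes that turned were Reg3g 0.35, Reg4 0.31, Retnlb 0.51, Mptx1 -0.48, Mptx2 -0.86, Pla2g2a -0.49 and Lyz1 0.031, and without M17_1 as well they were Reg3b 0.22, Reg3g 0.54, Reg4 0.063, Retnlb 0.28, Mptx1 -0.63, Mptx2 -0.73, Pla2g2a -0.035 and Lyz1 0.027. Without M18_2b and M19_1, those of Itln1 (-0.20), Reg4 (0.043) and Retnlb (0.0056) turned. These last 2 settings were chosen after seeing the data. Over the 12 fits without 1 mouse each, 0 genes were called and 2 members had an unadjusted p under 0.05 in every fit (2.61% to 9.03% of all genes). The log2 fold change lay from -0.55 to 0.094 for Ang4, -0.87 to 0.87 for Itln1, -0.49 to -0.066 for Lyz1, 4.24 to 5.49 for Mptx1, 4.55 to 5.60 for Mptx2, -0.087 to 1.61 for Pla2g2a, -1.34 to -0.32 for Reg3b, -0.57 to 0.047 for Reg3g, -0.30 to 0.16 for Reg4 and -0.40 to 0.27 for Retnlb. Apart from those of Mptx1 and Mptx2, the values that turned were smaller than 2 standard errors in all mice. No paired analysis was possible because the labels give mouse names and no replicate numbers that genotypes share. Depth limited Mptx2, at 4 to 24 counts in 10 mice.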
